A study of Saccharomyces cerevisiae with 73 samples.

Results

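The proteins of the cytosolic ribosome are described here through 128 genes of the budding yeast Saccharomyces cerevisiae, of 5538 genes analysed on the arrays. They were chosen by name: every gene whose symbol is RPL (large subunit) or RPS (small subunit) followed by a number and, where there is one, the letter A or B. There were 73 large-subunit and 55 small-subunit genes, called RP genes below. They fall into 73 families: 55 families with both an A and a B copy, 16 whose symbol carries no A or B, and 2 copies whose partner was not analysed here. Of the 132 genes of the yeast R64 gene table that fit the same rule, 4 were not analysed here.

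A ribosome needs 1 copy of most of its proteins, and in a growing yeast cell their messages are among the most abundant of all. The genes are switched on and off together, through the activators Rap1, Fhl1, Ifh1 and Sfp1 under the TOR and protein kinase A pathways, so their level tracks the growth rate the nutrients allow. Most of these proteins are encoded by a pair of near-identical genes left from the ancient duplication of the yeast genome, and some pairs differ in expression or regulate their own splicing.

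The strain in all groups was KCN118, an S288C strain of mating type alpha that carries ade2, also in the cells used for comparison. Cells were grown in dextrose with all amino acids and inositol, filtered, washed and moved to 1 of 13 media, and sampled 15, 30, 60, 120 and 240 min later. There were 4 galactose media (Sgal, Sgal+ino, Sgal+aa, Sgal+aa+ino), 4 ethanol media named in the same way (SEtOH and so on), and 4 dextrose media that lacked some or all amino acids. These were SD and SD+ino with none, SD+aa:LIVWHM+ino with only the 6 amino acids of that letter code, and SD+aa:ARNCQGKPSDEFTY+ino with only the other listed ones. The last medium was SD+aa, dextrose with all amino acids and no inositol. On each of 73 two-colour cDNA arrays, RNA from shifted cells (Cy5) was set against RNA from the cells before the shift (Cy3, t = 0). Each medium was 1 culture, which also underwent the filtering and washing, and SD+aa is the culture nearest to a mock shift. A value is the log2 ratio of shifted over t = 0 cells, so -1 is a 2-fold lower level, and it was computed from deposited values read as log10 ratios. The base and direction of those values are not given in the sources used here. In base 2 every value below would be 3.32 times smaller, and with the ratio turned round every sign would change. A ratio says nothing of the absolute level, and less RNA per cell cannot be told apart from fewer cells that hold it.

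Arrays held values for 4954 to 6254 probes, and their medians lay between -0.17 and 0.06 log2. The carbon source label was set against GAL1, the galactokinase gene, at 240 min: it stood at 2.42, 1.49, 1.63 and 2.09 in the galactose cultures, at 1.15, 1.21, 0.94 and 1.31 in the ethanol cultures, and between -0.40 and 0.08 in the dextrose cultures. GAL7, of the same pathway, was at 2.84, 2.07, 2.64 and 2.90 in galactose, at 2.42, 2.50, 2.33 and 2.77 in ethanol and between -0.01 and 0.67 in dextrose, so it did not separate galactose from ethanol. GAL10 was not raised, at -0.61, -0.09, -0.44 and 0.33 in galactose and between -0.75 and -0.35 in ethanol. Of the 9344 RP values on the 73 arrays, 92 were missing and 2 sat at the 100-fold limit of the table. RPS19A had a value in 35 and RPL31B in 53 of the 65 combinations of medium and time, and neither was tested in the comparisons of culture means.

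Averaged over the 5 times and compared with t = 0 across the 13 cultures, 122 of 126 RP genes tested were lower and 2 were higher (limma, Benjamini-Hochberg adjusted p under 0.05). The threshold was passed downwards by 40.5% of all genes tested. The median RP gene was at -0.84, against -0.05 for all genes. Among the lowest were RPS22A at -1.43 ± 0.12 (SE) and RPS10A at -1.22 ± 0.13, whose products belong to the small subunit. The genes called higher were RPS30A at 0.74 ± 0.10 (adjusted p = 9.01e-06) and RPL43B at 0.26 ± 0.06 (adjusted p = 0.00141), and RPL41B at -0.07 ± 0.08 was not called (adjusted p = 0.458). The arrays had no dye swap, so a dye effect of a gene is part of its value against t = 0 and cancels between media and between times. The SE measures the spread between 13 different media, and an error in the shared t = 0 RNA would not show in it.

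The courses fell into 2 shapes. When amino acids were removed in dextrose, RP messages dropped within 15 min, were lowest at 30 min, and were back near the starting level at 240 min. When the carbon source was changed, they declined slowly, in ethanol from each sample to the next and in galactose with more variation between cultures. Removing amino acids in galactose or ethanol did not bring the early drop.

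**Figure D1:**
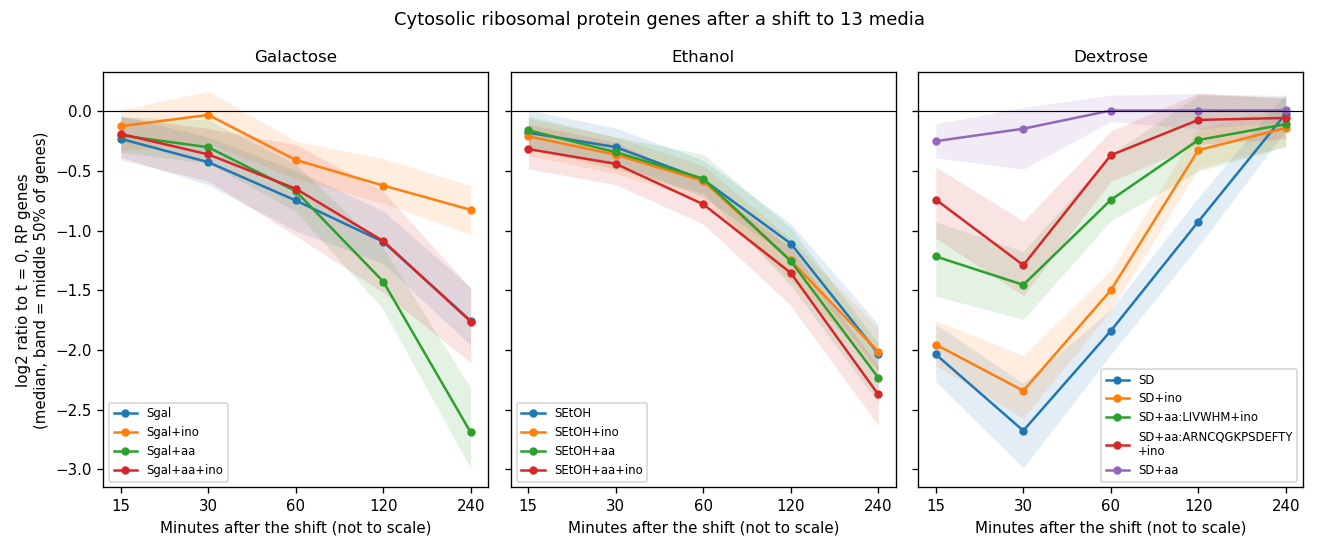
Median log2 ratio to t = 0 of the RP genes (points and lines) with the middle 50% of genes (bands), by minutes after the shift, in galactose, ethanol and dextrose media. Medians fell to -2.68 (SD) and -2.34 (SD+ino) at 30 min without amino acids in dextrose and ended near 0 at 240 min, while ethanol cultures ended between -2.37 and -2.01.

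In SD the median RP gene was at -2.04, -2.68, -1.84, -0.93 and -0.02 at 15, 30, 60, 120 and 240 min, which at 30 min is 6.39-fold below t = 0. In SD+ino the medians were -1.95, -2.34, -1.50, -0.33 and -0.14 at the same times. SD+aa stayed close to its start, at -0.25, -0.15, 0.01, 0.01 and 0.01. The lowest value fell at 30 min for 118 of 128 RP genes in SD and for 108 of 128 in SD+ino. At 240 min, 124 and 120 of these 128 genes were within 0.5 log2 of t = 0. The 128 include the 4 genes in each medium that stood above t = 0 at 15 min. Shares of all genes were not computed for counts of lowest values, of steps or of closeness to t = 0, here or below.

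At 15 min, 115 of the 120 RP genes with a value in every culture were lower in dextrose without amino acids than in SD+aa and 1 was higher, against 27.3% of all genes lower. The median difference was -1.78. The largest were in RPS9B (-2.50 ± 0.17, adjusted p = 9.40e-07), whose protein helps keep decoding accurate, in RPL7B (-2.47 ± 0.16) and in RPS10A (-2.39 ± 0.22). RPS9B stood at -3.10 in SD and -2.91 in SD+ino at 15 min, against -0.45 in SD+aa. The gene called higher was RPL41B (0.40 ± 0.15, adjusted p = 0.0469), a call lost with arrays centred on their median and on leaving out most single cultures, while RPS30A (0.29) and RPL27A (0.27) were not called. At 240 min the median difference was -0.22. Precision was lower: the widest difference, in RPL1A, was -0.90 ± 0.54. No RP gene passed the threshold then in limma, 0 had an unadjusted p under 0.05, and 0.0972% of all genes tested were lower. Quantile normalization gave 10. Quantile normalization, which gives every array the same spread of values, cut the count at 15 min to 33 and the median difference to -0.49, and the cause was not tested. RPS9B, at -0.41, was among the calls lost. The spread of the single culture with all amino acids is assumed to be like that of the others.

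Partial supplies gave intermediate drops. With only LIVWHM the medians were -1.22, -1.45, -0.74, -0.24 and -0.11 over the 5 times, and with only ARNCQGKPSDEFTY they were -0.74, -1.29, -0.37, -0.07 and -0.06. At 15 min, 91 of 120 RP genes were higher with LIVWHM than with no amino acids in dextrose (median difference 0.78, against 21.1% of all genes), and 116 of 120 were higher with ARNCQGKPSDEFTY (median difference 1.19, against 15.1%). With ARNCQGKPSDEFTY the largest gains were in RPS9A (2.24 ± 0.21), RPS13 (2.13 ± 0.20) and RPS10A (1.82 ± 0.22). With LIVWHM they were in RPL23A (1.71 ± 0.17), RPS13 (1.59 ± 0.20) and RPS30A (1.53 ± 0.19). RPS30A differs from the other two in its starting point: at 15 min it stood at 2.27 with LIVWHM, against 0.77 and 0.63 in SD and SD+ino, above t = 0 in each. Under quantile normalization, where RPL23A and RPS13 lost their calls with LIVWHM, these counts became 1 with LIVWHM and 0 with ARNCQGKPSDEFTY, with median differences of 0.32 and 0.58. Each partial medium was 1 culture.

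Over the culture means, which mix the drop with the return, 119 of 126 RP genes were lower without amino acids in dextrose (14.1% of all genes), with a median difference of -1.38. For the partial media the means gave 19 higher with LIVWHM (2.98% of all genes) and 34 with ARNCQGKPSDEFTY (2.15%). Those 2 counts rest on single cultures: leaving out SD+ino took them to 2 and 1, leaving out SD to 3 and 9, and over all single cultures left out they ranged from 2 to 30 and from 1 to 59.

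No early drop without amino acids was seen in the other carbon sources. At 15 min the medians without amino acids were -0.18 and -0.21 (SEtOH, SEtOH+ino), against -0.16 and -0.32 with them, and -0.23 and -0.13 (Sgal, Sgal+ino), against -0.20 and -0.19. Over culture means, limma called 0 of 126 RP genes in ethanol, where 6 had an unadjusted p under 0.05 and 0.62% of all genes were called higher. It called 0 of 126 in galactose, where 44 had an unadjusted p under 0.05 and 0.0775% of all genes were called higher, and 2 RP genes were called without Sgal+aa. The difference between carbon sources was itself tested. At 15 min the effect of removing amino acids was more negative in dextrose than in ethanol for 114 of 120 RP genes (24.6% of all genes), with a median of -1.76. It was more negative in dextrose than in galactose for 114 of 120 as well (25.2%). The largest gap to ethanol was in both copies of RPL1, the protein of the mobile L1 stalk: -2.58 ± 0.25 for RPL1A and -2.58 ± 0.30 for RPL1B. Over culture means the counts were 117 (11.4% of all genes) and 118 (15.5%) of 126. Quantile normalization left 11 and 12 of the 120 genes called at 15 min, and 67 and 69 over culture means.

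In galactose at 240 min the cultures without amino acids stood higher, at -1.76 and -0.83, against -2.69 and -1.76 with them. The median difference was 0.94 and 88 of 126 RP genes had an unadjusted p under 0.05, but 0 passed the adjusted threshold (0.136% of all genes higher). The largest were RPL16B (1.62 ± 0.31, adjusted p = 0.0569) and RPL12B (1.54 ± 0.29, adjusted p = 0.0539). Leaving out Sgal+aa+ino raised the count to 31 and leaving out Sgal raised it to 10. Sgal+ino was the galactose culture that fell least and Sgal+aa the one that fell most, and each is 1 culture. Among these 4 cultures the medians differed by inositol as much as by amino acids, as given with the inositol comparison.

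In ethanol the decline was steady. The medians at 15, 30, 60, 120 and 240 min were -0.18, -0.30, -0.57, -1.11 and -2.03 in SEtOH, and -0.21, -0.37, -0.58, -1.25 and -2.01 in SEtOH+ino. With amino acids they were -0.16, -0.34, -0.57, -1.26 and -2.23 in SEtOH+aa, and -0.32, -0.44, -0.78, -1.35 and -2.37 in SEtOH+aa+ino. At 240 min that is 4.04- to 5.18-fold below t = 0. Between 94 and 107 of 127 RP genes were lower at each sample than at the one before, and 122 or 123 had their lowest value at 240 min.

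Galactose gave the same direction with more spread between cultures. The medians were -0.23, -0.43, -0.75, -1.09 and -1.76 in Sgal, and -0.13, -0.03, -0.41, -0.62 and -0.83 in Sgal+ino. In Sgal+aa they were -0.20, -0.30, -0.67, -1.43 and -2.69, and in Sgal+aa+ino -0.19, -0.36, -0.65, -1.09 and -1.76. From each sample to the next, 96 of 126 RP genes were lower every time in Sgal, 30 of 127 in Sgal+ino, 75 of 127 in Sgal+aa and 57 of 125 in Sgal+aa+ino. The median of Sgal+ino was higher at 30 than at 15 min. At 240 min the galactose cultures were 1.77- to 6.46-fold below t = 0. For a single RP gene, the SD between the 4 cultures at 240 min had a median of 0.78 in galactose, against 0.22 in ethanol and 0.18 in dextrose lacking amino acids.

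Within cultures, the difference of 240 minus 15 min could be tested for 120 RP genes. In ethanol 116 fell and 3 rose, with a median change of -1.96, and 37.5% of all genes fell. In galactose 115 fell and 2 rose (median -1.56), against 39.5% of all genes falling. In dextrose lacking amino acids 113 rose and 3 fell (median 1.42), against 27.1% of all genes rising. In the single SD+aa culture limma called 0 of 120, where 0 had an unadjusted p under 0.05, 0% of all genes rose and 2 genes of the whole table fell. Quantile normalization gave 18 RP genes that rose there. The changes differed between groups: 116 RP genes were more negative in ethanol than in dextrose lacking amino acids (36.5% of all genes, median -3.39), and 116 were more negative in galactose (37.7%, median -3.02). Between ethanol and galactose 0 were called in limma, 5 had an unadjusted p under 0.05, and 1.85% of all genes were called more negative. Leaving out Sgal+aa raised that count to 9. Quantile normalization lowered the galactose count to 70.

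**Figure D2:**
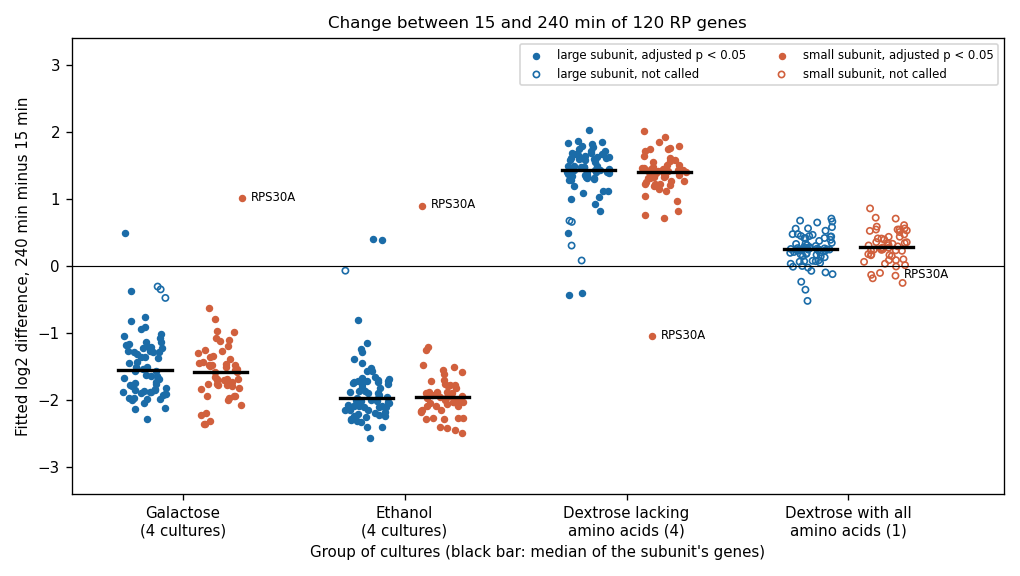
Fitted log2 difference between 240 and 15 min of each of 120 RP genes, by group of cultures and subunit. Filled points passed the adjusted threshold, open points did not, and black bars are medians, which stand at -1.56 over all RP genes in galactose, -1.96 in ethanol and 1.42 in dextrose lacking amino acids. RPS30A lies on the other side of 0 from most RP genes in these 3 groups, with RPL32 and RPL41B beside it in ethanol, RPL32 in galactose, and RPL41B and RPL43B in dextrose lacking amino acids.

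The largest falls in ethanol were in RPL16B (-2.57 ± 0.31, adjusted p = 1.39e-05), RPS9A (-2.49 ± 0.38) and RPS7A (-2.44 ± 0.28). In galactose they were in RPS2 (-2.36 ± 0.23, adjusted p = 3.13e-06), RPS7A (-2.35 ± 0.28) and RPS4B (-2.31 ± 0.24). In dextrose lacking amino acids the largest gains were in RPL7B (2.03 ± 0.29, adjusted p = 9.19e-05), RPS9B (2.02 ± 0.30) and RPS29A (1.92 ± 0.25). Quantile normalization ended the call of RPS9B (0.34). RPL7B, RPS9B and RPL22A had the largest difference in change between ethanol and dextrose lacking amino acids, at -4.26 ± 0.41, -4.20 ± 0.43 and -4.14 ± 0.49. The 3 genes called higher in ethanol were RPS30A, RPL41B and RPL32, described with the exceptions below.

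Because the courses ran in opposite directions, the sign of the carbon source comparison depends on time. At 15 min, 115 of 120 RP genes were higher in ethanol than in dextrose without amino acids (31.6% of all genes, median difference 1.80), and 114 were higher in galactose (32.4%). RPS9B led both, at 2.70 ± 0.14 and 2.69 ± 0.14. At 240 min, 121 of 126 were lower in ethanol (27.9% of all genes, median -1.93), led by RPL22A (-2.58 ± 0.38) and RPL37A (-2.55 ± 0.37). In galactose 99 of 126 were lower at 240 min (23.9%, median -1.23), a count that fell to 9 without SD and 11 without Sgal. Quantile normalization lowered the counts at 15 min to 62 in ethanol and 73 in galactose. The culture means, an average over both signs, gave 61 higher and 2 lower in ethanol (15.2% of all genes higher) and 109 higher and 6 lower in galactose (22.9%). Leaving out SEtOH, SD or SD+ino took the first to 9, 11 or 34, and leaving out Sgal+ino or SD took the second to 52 or 59.

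With all amino acids the carbon source alone was compared with SD+aa. At 15 min few RP genes differed. In ethanol RPS28B was lower (-0.91 ± 0.18, adjusted p = 0.0106), 1 other RP gene was called higher, and 5.01% of all genes were lower. In galactose RPL4B (0.62 ± 0.17), RPS12 (0.61 ± 0.17) and RPL3 (0.54 ± 0.15) were higher, against 7.13% of all genes. These small counts moved when 1 culture was left out: between 0 (without SEtOH+aa) and 2 were lower in ethanol, and between 0 (without any 1 ethanol culture) and 10 (without SD or SD+ino) were higher in galactose, with 1 left without Sgal, Sgal+ino or Sgal+aa. Quantile normalization gave 5 and 16. At 240 min, 121 of 126 were lower in ethanol (22.8% of all genes, median -2.47) and 118 in galactose (27.3%, median -2.42). RPS7A led both, at -3.50 ± 0.40 and -3.64 ± 0.40. It stood at -3.06 and -3.33 at 240 min in SEtOH+aa and SEtOH+aa+ino and at -3.59 and -3.08 in Sgal+aa and Sgal+aa+ino, against 0.17 in SD+aa. Over culture means 112 were lower in ethanol (23.8% of all genes) and 107 in galactose (30.3%), and quantile normalization lowered these to 65 and 47 and the galactose count at 240 min to 75.

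Few RP genes were called between ethanol and galactose. Over culture means 3 of 126 RP genes were lower in ethanol, against 6.82% of all genes: RPS20 (-0.68 ± 0.13, adjusted p = 0.00621), a protein of the small subunit head, RPL41A (-0.50 ± 0.14) and RPL38 (-0.49 ± 0.15). The median difference was -0.13, and it was -0.38 at 240 min alone. RPL41A and RPL38 lost their calls without Sgal, and RPL38 also with arrays centred on their median or with first arrays of repeats. RPS20 averaged -0.49, -0.78, -0.70 and -0.71 in SEtOH, SEtOH+ino, SEtOH+aa and SEtOH+aa+ino, against -0.14, -0.01, -0.15 and 0.34 in the galactose cultures Sgal, Sgal+ino, Sgal+aa and Sgal+aa+ino, with no overlap. Leaving out Sgal+aa raised the count to 13 and leaving out Sgal raised it to 5, and it was 1 without SEtOH+ino, SEtOH+aa+ino, Sgal+ino or Sgal+aa+ino. Removing inositol changed 0 of 126 RP genes in limma, with 9 at an unadjusted p under 0.05 and no call in either direction among all genes (0%). At 240 min alone it called 0 of 126 as well, with 3 at an unadjusted p under 0.05. These fits average over carbon sources. In galactose at 240 min the median RP gene was lower without inositol in both matched media, at -1.76 in Sgal, against -0.83 in Sgal+ino, and at -2.69 in Sgal+aa, against -1.76 in Sgal+aa+ino. In ethanol the same pairs stood at -2.03, against -2.01, and at -2.23, against -2.37. An effect of inositol within galactose was not tested.

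Within the family the members moved almost as one. Over the 65 combinations of medium and time, the correlation of a gene with the median of the other RP genes had a median of 0.957, and 109 of 128 genes were above 0.9. These points share arrays, cultures and the t = 0 RNA, so the values are a description. The slope on that median ran from 0.87 to 1.09 for the middle 50% of genes, and its highest value was 1.26. The genes with ubiquitin fused to the ribosomal protein in one precursor, RPL40A, RPL40B and RPS31, followed the rest, with r of 0.97, 0.92 and 0.92 and means over cultures of -0.83, -0.67 and -1.12.

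**Figure D3:**
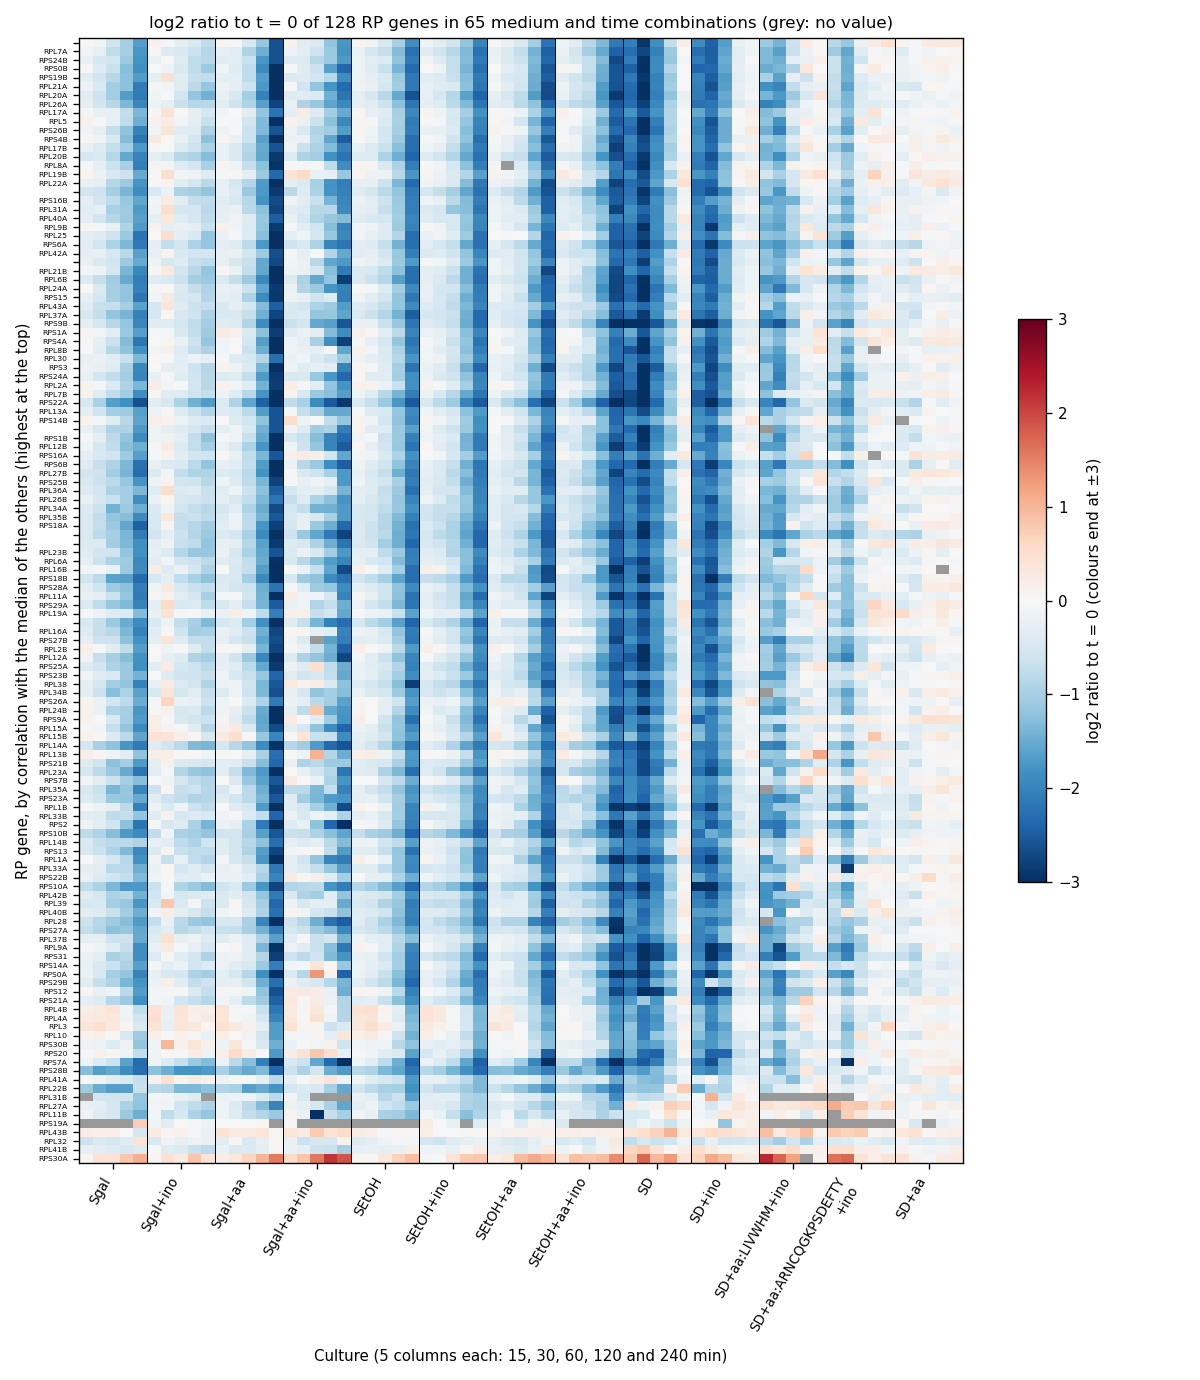
Log2 ratio to t = 0 of each of the 128 RP genes (rows, by correlation with the median of the others, a few without a name) in 65 combinations of medium and time (columns, 5 times per culture). Blue is lower and red higher than t = 0, grey has no value, and colours end at ±3. The rows are alike except at the bottom, where RPS30A, RPL41B, RPL32 and RPL43B do not follow the others.

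The correlation was below 0 for 4 genes: RPS30A (-0.67), RPL41B (-0.33), RPL32 (-0.19) and RPL43B (-0.06). Each encodes a ribosomal protein found in archaea and eukaryotes and not in bacteria. Since they were picked by this correlation over the same values, their courses are a description. Whether each probe measures the gene it is named for was not tested.

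RPS30A, which encodes the small-subunit protein eS30, mirrored the others. In SD it stood at 0.77, 1.73, 0.96, 1.28 and 0.40 over the 5 times, and in SD+aa:LIVWHM+ino at 2.27, 1.76 and 1.21 at the first 3. At 240 min it was at 0.91, 0.81, 1.00 and 1.43 in the ethanol cultures and at 1.08, 0.38, 1.55 and 1.88 in the galactose cultures, against 0.24 in SD+aa. Of its 64 values, 3 were below 0. Between 15 and 240 min it rose by 0.90 ± 0.25 in ethanol (adjusted p = 0.00648) and by 1.01 ± 0.25 in galactose (adjusted p = 0.00287), and fell by 1.04 in dextrose lacking amino acids (SE 0.25, adjusted p = 0.00350). Quantile normalization ended these 3 calls and the next one. At 240 min it was 1.50 ± 0.37 higher in galactose than in dextrose with all amino acids (adjusted p = 0.00987), and its value against SD+aa in ethanol was 1.00 ± 0.37 (adjusted p = 0.0574).

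RPL43B, for the large-subunit protein eL43, mostly stayed above t = 0, with 8 of 65 values below it. It stood at 0.37, 0.49, 0.68, 1.02 and 0.30 in SD, where its partner RPL43A was at -1.91, -2.34, -1.76, -1.13 and -0.05. In ethanol at 240 min it lay between 0.05 and 0.15, against -2.23 to -1.79 for RPL43A. Its change in ethanol was -0.07 ± 0.15 and was not called (adjusted p = 0.716). In dextrose lacking amino acids it fell by 0.40 (SE 0.15, adjusted p = 0.0410), a change that was 0.001 under quantile normalization. That call was also lost with arrays centred on their median and on leaving out either partial amino acid culture or any 1 ethanol culture.

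RPL41B, for the very short basic protein eL41 at the interface of the subunits, was at 0.63, 0.76, 0.43, 0.03 and 0.22 in SD and between 0.18 and 0.28 in the 4 ethanol cultures at 240 min. RPL41A was at -0.95, -1.25, -1.32, -0.92 and -0.14 in SD and between -1.73 and -1.12 in ethanol at 240 min. The change of RPL41B was 0.41 ± 0.16 in ethanol (adjusted p = 0.0352) and -0.43 ± 0.16 in dextrose lacking amino acids (adjusted p = 0.0324). The first call was lost on leaving out any 1 ethanol culture. The second was lost under quantile normalization and on leaving out SD, SD+ino or SD+aa:ARNCQGKPSDEFTY+ino.

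RPL32, a large-subunit gene without a copy, had a narrow range. Its values ran from -1.03 to 0.41 over the 65 combinations, and in SD they were -0.73, -0.46, -0.65, -0.56 and -0.13. It rose by 0.49 ± 0.15 in galactose (adjusted p = 0.0129, not called without Sgal) and by 0.39 ± 0.15 in ethanol (adjusted p = 0.0402, not called without SEtOH, SEtOH+ino, SEtOH+aa+ino or SD+ino).

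Some members stood apart from the others at 15 min. At 15 min the ethanol and galactose medians were about -0.2, but RPS28B was already at -0.83, -0.83, -1.27 and -1.11 in the 4 ethanol cultures and at -1.29, -1.22, -0.96 and -0.64 in the 4 galactose cultures, against -0.31 in SD+aa. Against SD+aa, with all amino acids, the RPS28B difference was called in ethanol but not in galactose (-0.52 ± 0.18). RPS28B is known for a transcript that its own protein helps to degrade. RPL22B, whose splicing the Rpl22 protein represses, was at -0.60, -0.58, -0.65 and -0.86 in ethanol and at -1.07, -0.82, -0.89 and -0.52 in galactose, against 0.00 in SD+aa. Neither RPL22B difference from SD+aa was called, at -0.76 ± 0.22 in ethanol and -0.71 ± 0.22 in galactose with all amino acids. Both copies of RPS10 were also low at 15 min, each with a mean of -0.74 in ethanol. Neither copy was called lower in ethanol against SD+aa, where RPS28B was the only RP gene called lower. The opposite held for RPL3 and the RPL4 pair, which bind early in the assembly of the large subunit. RPL3 stood at 0.34, 0.29, 0.36 and 0.08 in ethanol at 15 min and at 0.36, 0.39, 0.45 and 0.44 in galactose, against -0.07 in SD+aa, before it reached -1.28, -1.33, -1.56 and -1.71 at 240 min in ethanol. RPL4A and RPL4B averaged 0.22 and 0.25 in ethanol at 15 min. Against SD+aa at 15 min, RPL3 and RPL4B were called higher in galactose only, and both calls were lost on leaving out any 1 ethanol culture. RPL22B, the RPS10 pair and RPL4A were picked after their values were seen.

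Large and small subunit genes followed the same course. The median of the large-subunit genes was above that of the small-subunit genes in 58 of the 65 combinations, by 0.06 in the median combination and between -0.05 and 0.21 over all of them. At 30 min in SD the medians were -2.61 for the large and -2.77 for the small subunit. In the change from 15 to 240 min, the median was -1.96 for each in ethanol. There 65 of 68 large-subunit and 51 of 52 small-subunit genes fell, against 37.5% of all genes. In galactose the median was -1.55 for the large and -1.58 for the small subunit, and in dextrose lacking amino acids 1.44 and 1.41. No test of the subunits was made.

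Families with bacterial homologs (52 genes) were not set apart: their median was 0.03 below that of the other RP genes in the median combination, with a range from -0.24 to 0.16. The 48 of them tested all fell in ethanol between 15 and 240 min, against 116 of 120 RP genes and 37.5% of all genes. Genes of A/B pairs had a median 0.04 below that of the genes with no A or B in the symbol, with a range from -0.57 to 0.21. All 12 tested genes for proteins at the rim of the exit tunnel fell in ethanol, with a median of -1.98. All 20 for the head of the small subunit fell too, with a median of -1.91, against -1.96 for the 120 RP genes.

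The A and B copies of a pair mostly had the same values. The mean difference of A minus B over the cultures was under 0.25 in size for 38 of 55 pairs, from 0.25 to under 0.5 for 10, and 0.5 or more for 7. Across the combinations, the correlation between copies had a median of 0.93 and was above 0.9 for 41 pairs. In 13 of the 53 pairs with a value in all 13 cultures, the difference had the same sign in each. Near-identical copies can share signal on cDNA probes, whose sequences were not used here, so differences between copies may be understated, and how far was not tested. The correlation was below 0.5 for 5 pairs: RPL41 (-0.585), RPS30 (-0.523), RPL43 (-0.128), RPS19 (0.063) and RPL11 (0.128). Whether the probes of copies that part in this way measure the genes they are named for was not tested.

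**Figure D4:**
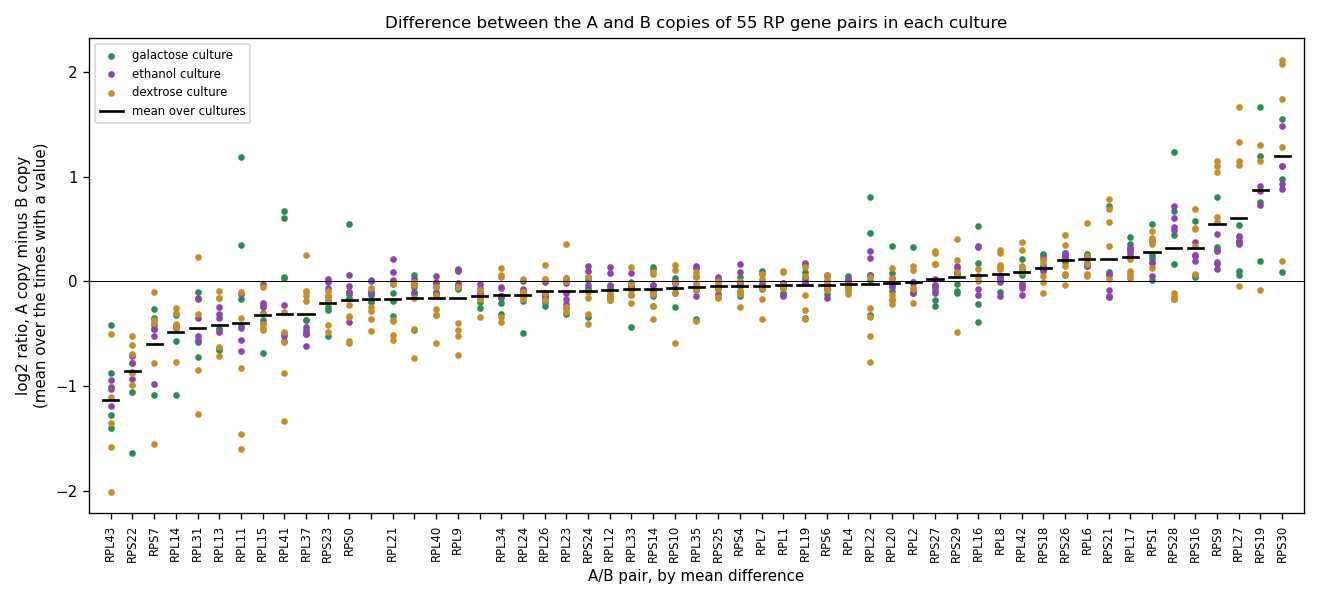
Difference of the A copy minus the B copy, as the mean log2 ratio over the times with a value, in each culture (points, coloured by carbon source) and averaged over cultures (bars), for 55 pairs ordered by that average, a few without a name. RPL43 (-1.13) and RPS30 (1.20) are at the ends, and 38 pairs lie within 0.25 of 0.

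The largest mean differences were in RPS30 (1.20 ± 0.62, SD over 13 cultures), RPL43 (-1.13 ± 0.42), RPS19 (0.87 ± 0.52 over 10 cultures, from 35 values), RPS22 (-0.86 ± 0.28) and RPL27 (0.61 ± 0.53). RPS7 (-0.59 ± 0.40) and RPS9 (0.55 ± 0.37) were the others past 0.5. In RPS30 and RPL43 1 copy left the common course. In RPS22 both copies followed it (r = 0.86) but the A copy fell further, at -1.43 against -0.57 for B averaged over cultures, and was below it in all 13 cultures. RPS7 includes the value of RPS7A at the limit of the table, in SD+aa:ARNCQGKPSDEFTY+ino at 30 min.

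Against t = 0, 25 of 53 pairs had a difference between copies past the threshold, where 74.5% of all genes were called in either direction, and 13 had one among genes with a value on every array. Among them were RPL6, RPL13, RPL14, RPL15, RPL17, RPL21, RPL24, RPL27, RPL34, RPL37, RPL40 and RPL43 for the large subunit, and RPS1, RPS7, RPS9, RPS16, RPS18, RPS22, RPS23, RPS26, RPS28 and RPS30 for the small subunit. Copies were also compared between media. Removing amino acids in dextrose changed the difference in 5 of 53 pairs over culture means (26.8% of all genes were called): RPS30 (1.78 ± 0.34), RPL27 (1.65 ± 0.20), RPL11 (-1.62 ± 0.44), RPL43 (-1.34 ± 0.24) and RPL22 (-0.72 ± 0.22). Ethanol against dextrose without amino acids changed 9 (33.4% of all genes): RPL9, RPL11, RPL22, RPL27, RPL37, RPL43, RPS9, RPS28 and RPS30, and this count was 1 without SEtOH, 2 without SD and 5 without SEtOH+ino. Galactose changed 9 as well (46.9%), with RPL41 and RPS27 in place of RPL37 and RPS9. With genes that had a value on every array, where fewer pairs were tested, these 3 counts were 2, 4 and 4, and quantile normalization raised the first to 21.

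RPL27 shows what the calls look like in the data. RPL27A stood at 0.30, -0.14, 0.11, 0.72 and 0.59 in SD and did not drop, while in ethanol it fell with the family, to between -1.44 and -1.01 at 240 min. RPL27B averaged -0.91 over the cultures, against -0.30 for RPL27A. The difference between the copies changed by -1.64 ± 0.17 from 15 to 240 min in dextrose lacking amino acids (adjusted p = 6.21e-06) and by 1.28 ± 0.17 in ethanol (adjusted p = 2.90e-05). Under quantile normalization the RPL27 change in dextrose lacking amino acids was -0.24 and not called, and that in ethanol was 0.94 and called. RPL11B behaved in a similar way, at -0.46, -0.42, 0.00, 0.46 and 0.02 in SD, against -2.35, -3.00, -2.23, -0.76 and -0.08 for RPL11A, a protein that binds the 5S rRNA. One value of RPL11B, in Sgal+aa+ino at 60 min, was at the limit, and the RPL11 difference is given with that value kept.

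The change over time was tested in the same way. The A minus B difference changed between 15 and 240 min in 13 of 48 pairs in ethanol (65.9% of all genes were called), in 16 in galactose (69.1%) and in 15 in dextrose lacking amino acids (54.9%). In ethanol these were RPL14, RPL16, RPL20, RPL22, RPL27, RPL37, RPL41, RPL42, RPL43, RPS7, RPS22, RPS26 and RPS30, with sizes between 0.31 and 2.11. In galactose RPL14, RPL16, RPL22, RPL37, RPL42, RPL43, RPS7, RPS22, RPS26 and RPS30 were called again, with RPL15, RPL17, RPL23, RPS21, RPS27 and RPS28. In dextrose lacking amino acids they were RPL7, RPL14, RPL17, RPL22, RPL27, RPL41, RPL43, RPS9, RPS10, RPS16, RPS22, RPS26, RPS28, RPS29 and RPS30. RPS22 changed by -0.66 ± 0.11 in ethanol, -1.12 ± 0.11 in galactose and 0.92 ± 0.11 in dextrose lacking amino acids, the sign of which turned under quantile normalization (-0.19). The RPS22 calls in ethanol and galactose were lost there too, and the signs of RPL14 and RPS9 in dextrose lacking amino acids and of RPL43 in ethanol and galactose turned. Quantile normalization left 8 pairs in galactose and 9 in dextrose lacking amino acids, and genes with a value on every array left 6 in ethanol, 9 in galactose and 7 in dextrose lacking amino acids.

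One pair differed between ethanol and galactose, RPL41 (-0.79 ± 0.17 over culture means, adjusted p = 0.0128, where 15.6% of all genes were called). RPL41A was lower in ethanol and RPL41B lower in galactose at 240 min, with RPL41B at 0.18, 0.24, 0.28 and 0.19 in ethanol, against -0.41, -0.79, 0.07 and -0.99 in galactose. Pairs called in this comparison numbered 6 without Sgal+aa, 2 without SEtOH and 0 without SEtOH+ino, SEtOH+aa+ino, Sgal+ino or Sgal+aa+ino.

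Other genes of protein synthesis were set beside the RP genes. The 34 ribosome assembly factors, nucleolar proteins such as NOP1, NOP56 and UTP22 that process rRNA and fold it with the RP proteins, dropped further at first. Their medians in SD were -3.98, -4.04, -2.78, -1.19 and -0.29, against -2.04, -2.68, -1.84, -0.93 and -0.02 for the RP genes. At 15 min all 32 tested were lower without amino acids in dextrose than in SD+aa (median -3.31, against -1.78 for the RP genes, and 27.3% of all genes lower). All 32 fell in ethanol between 15 and 240 min (median -2.28, against -1.96, and 37.5% of all genes falling). Of the translation initiation and elongation factors 25 of 27 were lower at 15 min without amino acids (median -1.42) and 24 of 27 fell in ethanol (median -1.58). All 4 tested stalk proteins of the RPP genes and all 8 ribosome-associated chaperones and factors were lower at 15 min, with medians of -1.57 and -1.73.

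Genes of the mitochondrial ribosome, which makes proteins inside mitochondria, had smaller differences. At 15 min 14 of 38 were lower and 1 higher without amino acids in dextrose (median -0.34), against 27.3% of all genes lower. In ethanol 2 of 38 fell and 3 rose between 15 and 240 min (median 0.02), against 37.5% of all genes falling. Among 10 regulators of RP genes, such as FHL1, IFH1 and SFP1, 3 were lower and 3 higher at 15 min without amino acids (median -0.22), a share lower that is near the 27.3% of all genes.

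**Figure D5:**
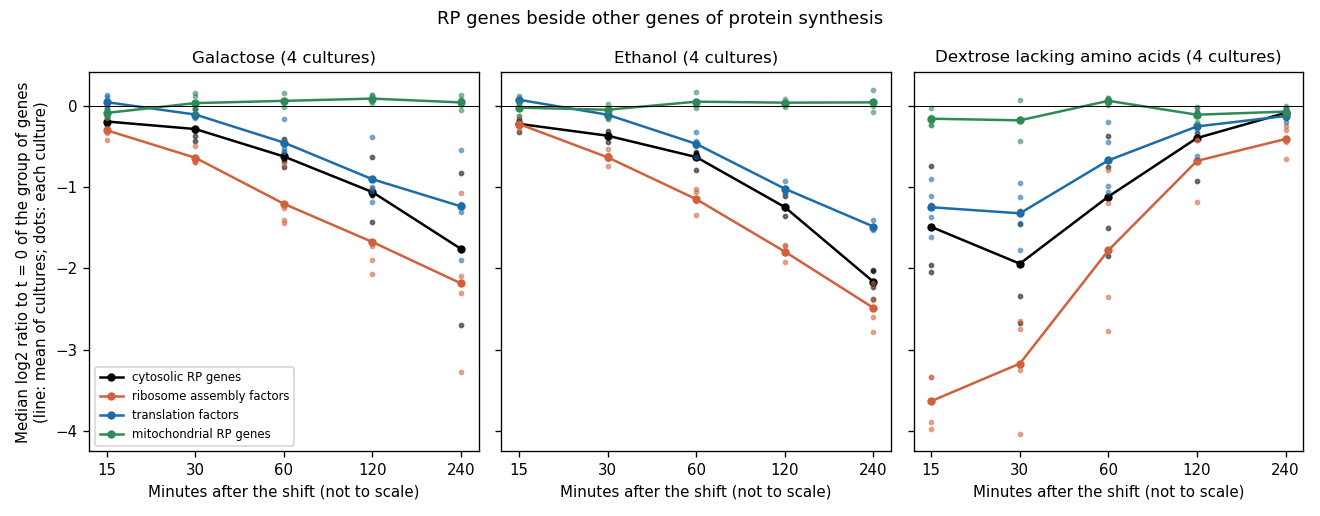
Median log2 ratio to t = 0 of 4 groups of genes by minutes after the shift, in galactose, ethanol and dextrose lacking amino acids; lines are means of 4 cultures and dots are single cultures. In dextrose lacking amino acids assembly factors lie below the RP genes at 15 min, and mitochondrial RP genes stay near 0. Translation factors lie above the RP genes at 30 and 60 min there, as at 30 min in SD (-1.77, against -2.68).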

How the data were processed

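The authors deposited 1 table of ratios for 73 two-colour cDNA arrays with 6256 probes. The deposited values were taken to be log10 ratios, with shifted cells on top, from their centring near 0 and their limits at 2 in either direction; base, direction and normalization are not given in the sources used here. They were multiplied by 3.32 to log2 and not normalized further. Of the probes, 5568 had 1 gene symbol and 688 had none; probes of a gene were averaged, leaving 5538 genes. All 128 RP symbols matched the R64 gene table, used for names only.

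Repeat arrays (8) were averaged. Those labelled ojgrid, for SD+ino at 240 min and Sgal+ino at 60 min, carry the replicate number of their partners. Over all probes they differed from their partners by a median of 0.0004 and 0.0041 log2 in size. Whether they are separate hybridizations is not given in the labels. The culture was the replicate, and each medium was 1 culture. Against t = 0 and for the change over time, p-values measure the spread between single cultures of different media. In the other fits the residual spread comes only from how the inositol difference varied between media matched except for inositol. That spread holds no repeat of the same medium. Culture means over time (values at 3 or more times in every culture), single times and the difference of 240 minus 15 min were fitted over all genes with limma 3.58.1 in R 4.3.3 (lmFit, eBayes). P-values were 2-sided and Benjamini-Hochberg adjusted, with a threshold of 0.05. The means were fitted with carbon source, amino acids and inositol (4 residual degrees of freedom), the change with 4 groups of cultures (9). A minus B rows were added to the same table. With no intensities used, the number of arrays limits precision. On simulated data 90.5% of genes changed by 1 log2 were recovered for amino acids in dextrose (5164 genes). For the change in ethanol it was 89% (4638 genes), and 52% for the amino acid effect in dextrose against ethanol. With 0.5 log2, recovery was 2% for amino acids in dextrose, 0% in ethanol and 10.5% in galactose, and 2.5% for the change in ethanol. Differences of that size could be missed. Recovery at single times was not simulated. Named genes were the 3 most positive and 3 most negative per comparison, the 5 widest pairs, every pair called in the comparisons described, genes not tested and the ubiquitin-fused and RPL41 genes. Alternatives were median centring, quantile normalization, first arrays of repeats, values at the limit missing, probes without a symbol kept, genes with a value on every array, eBayes with trend and robust, early or late times and leaving out each culture. Members and lists were chosen with earlier results of these data known. Sequences and promoter motifs were not analysed here. Results of a few RP genes are not reported here.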

Additional observations from a re-analysis of the deposited data

Results flagged for a closer look

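Groups of 4 cultures, 54 in all for the RP median and 12 single genes, were tested for a culture far from the others. By chance a rule of this kind finds a distant culture in about 1 of 20 groups, and 2 were found. The median RP gene of the ethanol cultures at 60 min was -0.78 in SEtOH+aa+ino, far from -0.58, -0.57 and -0.57 in the others. RPL11B averaged -1.69 over time in Sgal+aa+ino, far from -0.72, -0.68 and -0.64 in the other galactose cultures, and this mean holds the value at the limit of the table at 60 min (-6.64).

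Differences between groups passed the interaction test for most RP genes. At 15 min the effect of removing amino acids was more negative in dextrose than in ethanol for 114 of 120 RP genes, and more negative than in galactose for 114 of 120. The change from 15 to 240 min was more negative in ethanol than in dextrose lacking amino acids for 116 of 120 RP genes, and in galactose for 116 of 120. Of all genes, 24.6% and 25.2% were more negative in the amino acid comparisons, and 36.5% and 37.7% in the changes over time.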

How the results depend on the processing

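No paired analysis was possible because each medium was 1 culture, so no replicate numbers pair cultures across groups. Media matched except for inositol were compared with each other by the inositol term, since the fit held carbon source and amino acids fixed. Of 648 values of named genes and pairs under other settings, 599 kept direction and side of the threshold, 42 lost the call and 7 turned sign. With 1 culture left out, 1148 of 1278 kept both and 130 lost the call. Of 44 counts, 10 stayed within 1.5 times under every other setting that used all cultures. The cause of the moves was not tested. The deposited values carry no signal over background, so weak probes could not be set apart.

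Quantile normalization moved the most counts of RP genes. For culture means the counts became 28 higher in ethanol and 67 in galactose than in dextrose without amino acids, 65 lower in ethanol and 47 in galactose than in dextrose with all amino acids, and 11 lower in ethanol than in galactose. The amino acid effect differed from ethanol in 67 and from galactose in 69, and 7 were higher with LIVWHM. At 15 min, 33 were lower without amino acids in dextrose, 1 was higher with LIVWHM, 0 with ARNCQGKPSDEFTY, and 62 in ethanol and 73 in galactose were higher than without amino acids in dextrose. Against SD+aa the 15 min counts were 5 lower in ethanol and 16 higher in galactose, and the amino acid effect differed from ethanol in 11 and from galactose in 12. At 240 min, 10 were lower without amino acids in dextrose and 75 lower in galactose than in dextrose with all amino acids. For the change over time, 18 rose in SD+aa and 70 fell in galactose. Copy differences numbered 21 for amino acids in dextrose, 8 for the change in galactose and 9 for that in dextrose lacking amino acids. It turned the sign of RPL41B at 15 min without amino acids (-0.001), of RPL43B in the change in dextrose lacking amino acids (0.001) and of 3 copy differences there, RPL14 (-0.274), RPS22 (-0.191) and RPS9 (0.661). The RPL43 copy difference turned to 0.185 in the change in ethanol and to 0.653 in galactose.

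Restricting to genes with a value on every array, where fewer genes were tested, gave 40 higher in ethanol than in dextrose without amino acids, 2 lower at 15 min in ethanol with all amino acids and 3 higher at 240 min without amino acids in galactose. Copy differences were then 13 against t = 0, 2 for amino acids in dextrose, 4 for ethanol and 4 for galactose against dextrose without amino acids, 0 between ethanol and galactose, and 6, 9 and 7 for the changes in ethanol, galactose and dextrose lacking amino acids. With only 15 and 30 min, 113 were higher in ethanol than in dextrose without amino acids, 2 in ethanol and 2 in galactose were lower than with all amino acids, 0 were lower in ethanol than galactose, and 87 and 108 were higher with LIVWHM and ARNCQGKPSDEFTY. With only 120 and 240 min these partial media gave 0 and 0, ethanol and galactose against dextrose without amino acids 0 and 0, amino acids 0 in dextrose and 8 in galactose, and their difference 0 for ethanol and 3 for galactose. With values at the limit missing, 2 were lower at 15 min in ethanol with all amino acids, 3 higher at 240 min without amino acids in galactose, and 1 differed in change between ethanol and galactose. The trend and robust options gave 2 lower in ethanol and 6 higher in galactose at 15 min with all amino acids, and 1 differing in change. Median centring gave 6 for that galactose count, and first arrays of repeats gave 1 for the difference in change.

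With 1 culture left out, counts ranged as follows. For RP genes over culture means they were 122 to 123 against t = 0, 9 to 68 in ethanol and 52 to 111 in galactose against dextrose without amino acids, and 82 to 116 and 86 to 112 against dextrose with all amino acids. Ethanol against galactose gave 1 to 13, inositol 0 throughout, and amino acids 107 to 119 in dextrose, 0 throughout in ethanol and 0 to 2 in galactose. The amino acid effect differed in 95 to 118 from ethanol and 109 to 118 from galactose, and the partial media gave 2 to 30 (LIVWHM) and 1 to 59. At 15 min the counts were 115 to 119 for amino acids in dextrose, 83 to 94 and 114 to 120 for the partial media, 114 to 119 and 113 to 118 for ethanol and galactose against dextrose without amino acids, 0 to 2 and 0 to 10 with all amino acids, and 113 to 118 and 113 to 118 for the amino acid effect against ethanol and galactose. At 240 min they were 0 throughout for amino acids in dextrose and 0 to 31 in galactose, 89 to 122 and 9 to 107 for ethanol and galactose against dextrose without amino acids, and 113 to 122 and 107 to 120 with all amino acids. For the change over time they were 103 to 116 in dextrose lacking amino acids, 0 throughout in SD+aa, 116 to 120 in ethanol, 109 to 119 in galactose, 116 to 120 and 116 to 120 for ethanol and galactose against dextrose lacking amino acids, and 0 to 9 for ethanol against galactose. Copy differences ranged 22 to 27 against t = 0, 4 to 6 for amino acids in dextrose, 1 to 9 and 8 to 12 for ethanol and galactose against dextrose without amino acids, 0 to 6 between ethanol and galactose, and 11 to 15, 12 to 17 and 10 to 15 for the changes in ethanol, galactose and dextrose lacking amino acids.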
